A study of Homo sapiens with 6 samples.

Results

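The genes described here are 10 targets of the transcription cofactor YAP and of serum response factor (SRF), namely CCN1, CCN2, ANKRD1, AMOTL2, AJUBA, LATS2, SRF, VCL, TAGLN and ADAMTS1, out of 16655 genes in the deposited table. They were named as known targets with earlier results of these data in view. CCN1 and ADAMTS1 were selected on their measured values, because they were among the 10 genes that passed the test between the groups, so their rise is a description and carries no test here. The same caution applies to the other 8 genes, which were named with the same results known. All 10 genes were found in the table by symbol, and all 10 passed the filter on low counts in the fit over all genes.

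RNA was sequenced from HEK-293T cells, which descend from human embryonic kidney and express SV40 large T antigen, in 3 libraries of cells transfected with the GFP vector pEGFP-C1 (GFP cells) and 3 libraries of cells transfected with the same vector carrying RfA1 (RfA1 cells). RfA1 is reflectin A1, a squid protein that takes part in the structural colour of cephalopod skin, and it was made in these cells with a GFP tag. Both groups therefore went through lipofection and both carried GFP, and the labels give harvest 24 h after transfection by trypsin treatment. The cells were transfected transiently and were sequenced in bulk, so a change in the share of responding cells and a change in RNA per cell cannot be told apart. The labels number the libraries 1 to 3 in each group but do not say that they came from separate cultures, so the errors below measure the spread between these libraries, which may be technical. Plasmid transcripts were not part of the analysis, so the expression of RfA1 itself was not checked.

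YAP and its paralog TAZ (WWTR1) carry no DNA-binding domain and reach their target genes through the TEAD factors. The Hippo kinases LATS1 and LATS2 phosphorylate them and keep them out of the nucleus, and tension in the actin cytoskeleton relieves this restraint. SRF binds a DNA element called the CArG box and works with either of 2 families of cofactors. The myocardin-related factors (MRTFA, MRTFB) leave monomeric actin when actin polymerizes and drive cytoskeletal genes, whereas the ternary complex factors (ELK1, ELK3, ELK4) follow MAP kinase signalling and drive immediate early genes. CCN1 is a target of both YAP/TEAD and SRF, and several YAP targets, among them LATS2, AMOTL2 and AJUBA, act back on the Hippo pathway.

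Promoter sequences are given first, for the members in which the motif of TEAD or of SRF was found. The RefSeq table of promoters (build GRCh38.p14) held 10 windows for 7 of the 10 members, CCN2, ANKRD1, AMOTL2, AJUBA, LATS2, SRF and VCL. Only the 250 bases before each start site were searched, on both strands, for the TEAD motif GGAATG, which reads CATTCC from the other strand, and for the CArG box. No window of a member held both motifs. The TEAD motif was present in 11.9% of the 35116 windows of all genes and the CArG box in 1.16%. Of the 7 members with a window, 5 held the TEAD motif and 1 held a CArG box in at least 1 window. These are counts of genes, some with more than 1 window, while the shares above are per window, so they are not directly comparable.

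The CCN2 window on the minus strand (chr6:131951373-131951622) held 3 TEAD motifs, which begin 169, 104 and 95 bases before the start site, and the SRF window on the plus strand (chr6:43171019-43171268) held 2 CArG boxes, which begin 30 and 10 bases before it. Both windows are printed whole, because one holds the most TEAD motifs and the other the 2 CArG boxes found, with the motifs in capitals.
CCN2: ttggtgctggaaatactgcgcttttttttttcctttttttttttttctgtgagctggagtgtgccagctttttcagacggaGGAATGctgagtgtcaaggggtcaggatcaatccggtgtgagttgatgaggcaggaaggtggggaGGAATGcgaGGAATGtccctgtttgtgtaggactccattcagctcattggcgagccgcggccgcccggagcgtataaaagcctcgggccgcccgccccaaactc
SRF: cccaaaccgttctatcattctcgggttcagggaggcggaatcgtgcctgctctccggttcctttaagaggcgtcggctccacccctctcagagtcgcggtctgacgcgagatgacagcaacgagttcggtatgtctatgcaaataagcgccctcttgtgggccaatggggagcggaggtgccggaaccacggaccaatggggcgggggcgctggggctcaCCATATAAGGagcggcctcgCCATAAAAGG

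The other matches to the TEAD motif are shown as stretches of 30 bases with the motif in capitals. In ANKRD1 they begin 220 and 128 bases before the start site (chr10:90921290-90921319 and chr10:90921198-90921227, minus strand), in AMOTL2 69 bases before the second of its start sites (chr3:134374499-134374528, minus strand), in AJUBA 59 bases before the second of its start sites (chr14:22976884-22976913, minus strand) and in VCL 171 bases before the start site (chr10:73997933-73997962, plus strand).
ANKRD1 distal: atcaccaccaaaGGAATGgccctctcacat
ANKRD1 proximal: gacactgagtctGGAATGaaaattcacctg
AMOTL2: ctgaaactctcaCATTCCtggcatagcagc
AJUBA: gggaagttggctGGAATGaagccaaagcaa
VCL: gcccctcccttaGGAATGggggaggggcgg
LATS2 and the other windows of SRF, AMOTL2 and AJUBA held neither motif in these bases. A match of letters is a description of the window and does not show binding.

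The libraries held 10272306 to 11566284 estimated counts, and 13002 genes passed the filter on low counts. In a principal component analysis, the first component took 44.6% of the variance and did not separate the groups, since the scores of RfA1 replicate 2 (10.1) and of GFP replicates 2 and 3 (18.2 and 12.3) stood against those of RfA1 replicates 1 and 3 (-16.5 and -22) and GFP replicate 1 (-2.18). The dependence of counts on transcript GC content followed the same split, with a slope of 0.08 to 0.127 log2 units per 10 percentage points in the first 3 libraries and -0.145 to -0.0392 in the others. Calls in the members and gene lists that change without RfA1 replicate 2 or after a correction for GC content are therefore given beside the genes. The same holds for changed signs of the members. The part of GC content in the results was not tested. The HEK-293T genes on a list of 6 (PAX2, KRT8, KRT18, CDH2, VIM and LIN28B) were all measured, with a summed level of 1020 to 1260 CPM in GFP cells and 1020 to 1310 CPM in RfA1 cells. Without RfA1 replicate 2, KRT18 (log2 fold change -0.26, edgeR adjusted p = 0.0428) and LIN28B (0.36, edgeR adjusted p = 0.0068) passed, as did 20.1% of all genes. CPM are counts scaled to the same TMM-normalized library size in every library.

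In the comparison of RfA1 cells with GFP cells by edgeR's quasi-likelihood test, 10 of the 13002 genes passed at an adjusted p under 0.05 (0.0769%), 8 of them higher (0.0615%) and 2 lower (0.0154%) in RfA1 cells. Among the 10 target genes, CCN1 and ADAMTS1 were higher in RfA1 cells and none was lower by that rule. At an unadjusted p under 0.05, which 13.9% of all genes passed, AMOTL2 was added to these. In CPM, the lowest RfA1 library was above the highest GFP library in CCN1, ADAMTS1 and AMOTL2, an order that 9.86% of all genes had, and the reverse held in AJUBA, an order that 8.01% had. The median log2 fold change of the 10 genes was 0.15 with 8 of 10 above 0, beside a median of -0.0024 with 6439 of 13002 above 0 over all tested genes. Over the alternatives the median of the members ran from 0.069 to 0.20, and without RfA1 replicate 2 the log2 fold change was above 0 in 6 of 10. The members were named with this contrast known, so their counts, median and signs are a description and no support.

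**Figure D1:**
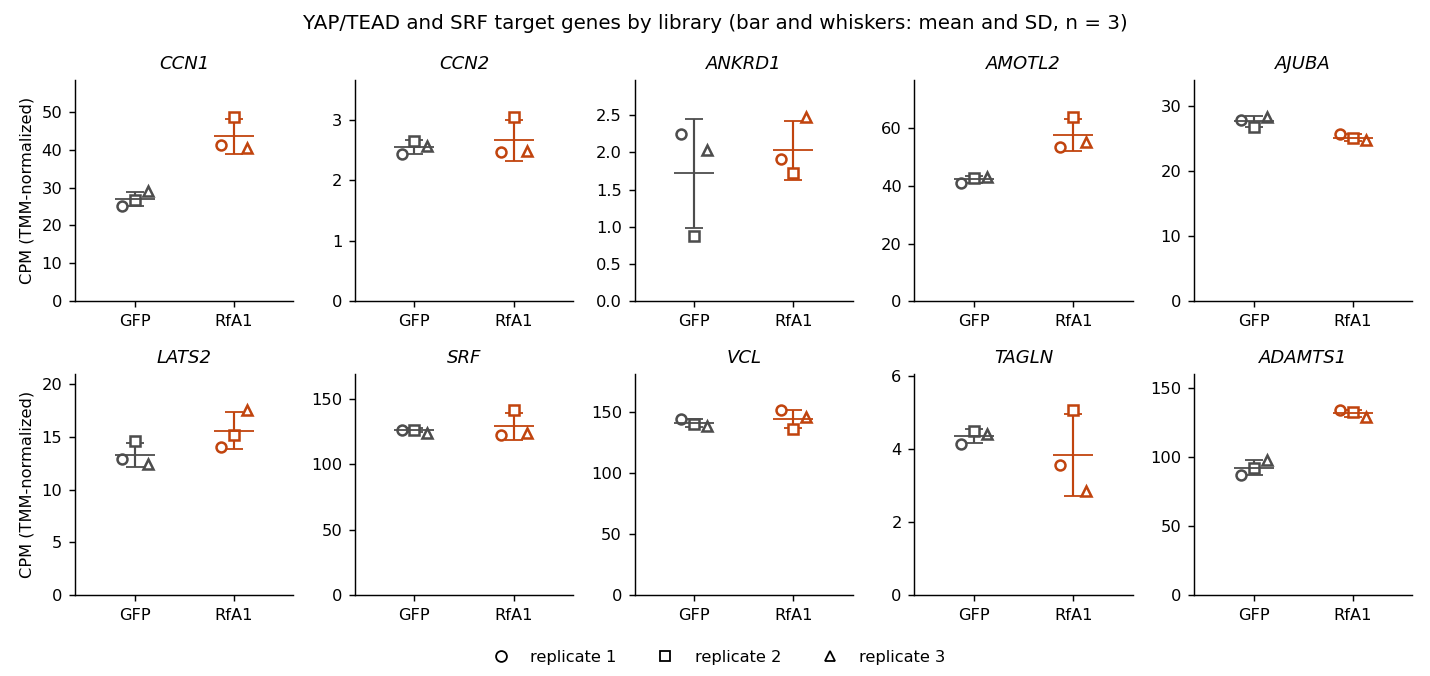
TMM-normalized CPM (vertical axes, each from 0) of the 10 target genes in GFP and RfA1 cells, with 1 symbol per library and the mean ± SD (n = 3) as bar and whiskers. CCN1, ADAMTS1 and AMOTL2 have all RfA1 libraries above all GFP libraries, AJUBA has them below, and the other 6 genes overlap.

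CCN1 and CCN2 encode secreted proteins of the extracellular matrix that bind integrins, and both are commonly used as readouts of YAP. CCN1 (Gene ID 3491) was measured at 25.2, 26.8 and 29 CPM in GFP cells and at 41.3, 48.7 and 40.4 CPM in RfA1 cells, from 280 to 328 and from 424 to 511 counts. Every RfA1 library was above every GFP library, and the gap between the groups, from 29 to 40.4 CPM, was wider than the spread within either. The means were 27.0 ± 1.89 and 43.5 ± 4.55 CPM (SD, n = 3), a log2 fold change of 0.69 with a standard error of 0.10 and a 95% interval of 0.46 to 0.92, or 1.61-fold.

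CCN2 (Gene ID 1490), the closest relative of CCN1 among the members, showed no such separation of the groups in CPM. Its counts were 27, 30 and 29 in GFP cells and 27, 32 and 26 in RfA1 cells, which is 2.43, 2.65 and 2.56 CPM against 2.46, 3.05 and 2.48 CPM. The groups overlapped, and the log2 fold change was 0.062 with a standard error of 0.21. Its 95% interval, from -0.39 to 0.52, spanned 0.761-fold to 1.43-fold at 26 to 32 counts per library. The interval of CCN1, from 1.37-fold to 1.89-fold, overlapped with it, and the difference between the 2 genes was not tested. Without RfA1 replicate 2 the log2 fold change was -0.045.

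Within single libraries, the ratio of the TPM of CCN1 to that of CCN2 was 10.7, 10.4 and 11.6 in GFP cells and 17.3, 16.4 and 16.8 in RfA1 cells. This ratio needs no scaling between libraries, and it was higher in every RfA1 library than in every GFP library. CCN1 was selected for its rise between these groups, so the ratio repeats that rise and is no separate support. The counts of CCN2 limit the precision of the ratio. Of the other members of the CCN family, CCN3, CCN5 and CCN6 were below the filter, with at most 2 counts in any library.

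ADAMTS1 (Gene ID 9510), a secreted metalloprotease that cleaves proteoglycans of the matrix, had 973, 1041 and 1114 counts in GFP cells and 1471, 1395 and 1355 counts in RfA1 cells. Its levels of 87.5, 91.9 and 98.4 CPM against 134, 133 and 129 CPM did not overlap, and the RfA1 libraries lay closer together than the GFP libraries. The means were 92.6 ± 5.45 and 132 ± 2.53 CPM (SD, n = 3), a log2 fold change of 0.51 with a standard error of 0.078 and a 95% interval of 0.34 to 0.68, or 1.43-fold. The TPM ratio of CCN1 to ADAMTS1 within a library was 0.702 to 0.718 in GFP cells and 0.753 to 0.894 in RfA1 cells, and that of ADAMTS1 to VCL was 0.679 to 0.814 against 0.982 to 1.1. CCN1 and ADAMTS1 were selected for their rise, so these ratios are a description.

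The calls of CCN1 and ADAMTS1 depended on the libraries kept. When 1 library was left out in turn, either gene passed in 1 of 6 fits, the one without RfA1 replicate 2, in which 2636 of 13129 genes passed (20.1%). The log2 fold changes moved little in these fits and in the other alternatives, from 0.60 to 0.74 for CCN1 and from 0.47 to 0.56 for ADAMTS1. DESeq2, which called 0.254% of all genes, also called both, and limma-trend on log2(TPM + 1), which called 0.0308%, called CCN1 but not ADAMTS1. With upper-quartile normalization neither gene passed, at log2 fold changes of 0.68 and 0.51.

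Of the 3 members that act on the Hippo pathway itself, AMOTL2 came closest to the 2 genes above. AMOTL2 (Gene ID 51421), an angiomotin that binds YAP at cell junctions, had 456, 484 and 489 counts in GFP cells and 589, 672 and 581 in RfA1 cells. The RfA1 libraries, at 53.6, 64.1 and 55.4 CPM, were all above the GFP libraries, at 41.0, 42.7 and 43.2 CPM. Its log2 fold change was 0.45 with a standard error of 0.094 and a 95% interval of 0.24 to 0.65, or 1.36-fold, which did not pass the adjusted threshold. After a correction for GC content, in which 1.48% of all genes passed, AMOTL2 passed with a log2 fold change of 0.54. It also passed without RfA1 replicate 2, as 20.1% of all genes did, with a log2 fold change of 0.37.

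LATS2 (Gene ID 26524), the kinase that phosphorylates YAP, was at 12.9, 14.6 and 12.4 CPM in GFP cells and at 14.0, 15.2 and 17.5 CPM in RfA1 cells. The groups overlapped in 1 library, GFP replicate 2, which was above the lowest RfA1 library. The log2 fold change was 0.23 with a standard error of 0.12, and the 95% interval ran from -0.042 to 0.50.

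AJUBA (Gene ID 84962), a LIM domain protein that inhibits the LATS kinases, was the member whose CPM were lower in every RfA1 library. It stood at 27.8, 26.7 and 28.3 CPM in GFP cells and at 25.7, 25 and 24.7 CPM in RfA1 cells. The difference was small, with a log2 fold change of -0.14, a standard error of 0.092 and a 95% interval of -0.34 to 0.064, and it did not pass the test. In the deposited TPM the groups overlapped, at 10.2, 10.3 and 10.8 TPM against 10.0, 8.53 and 10.6 TPM. The TPM ratio of AMOTL2 to AJUBA was 1.35, 1.33 and 1.33 in GFP cells and 1.90, 2.43 and 1.86 in RfA1 cells, higher in every RfA1 library. Both genes were named with this contrast known, so the ratio repeats their values and is no separate support. The ratio of AMOTL2 to LATS2 overlapped between the groups, at 3.73 to 4.47 against 4.01 to 5.32.

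ANKRD1 (Gene ID 27063), an ankyrin repeat protein of muscle and a common YAP readout in other cells, was too low to be read with precision. Its counts were 25, 10 and 23 in GFP cells and 21, 18 and 26 in RfA1 cells. GFP replicate 2 alone, at 0.883 CPM, lay below the range of 1.72 to 2.48 CPM that held the other 5 libraries. The log2 fold change was 0.24 with a standard error of 0.33 and a 95% interval of -0.48 to 0.96, and without GFP replicate 2 it was -0.072.

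SRF, VCL and TAGLN are grouped here as targets of SRF, and none of them passed the test. CCN1, which passed, is a target of SRF as well, so these genes are only a part of the SRF branch. SRF (Gene ID 6722), which is a target of its own product, had 1404, 1432 and 1403 counts in GFP cells and 1344, 1478 and 1305 in RfA1 cells. Its CPM of 126, 126 and 124 against 122, 141 and 124 overlapped. The log2 fold change was 0.041 with a standard error of 0.082, and its 95% interval of -0.14 to 0.22 lay below the fold changes of CCN1, ADAMTS1 and AMOTL2. Without RfA1 replicate 2 the log2 fold change of SRF was -0.025.

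VCL (Gene ID 7414) encodes vinculin, which links integrin adhesions to actin, and was at 144, 140 and 138 CPM in GFP cells and 151, 136 and 146 CPM in RfA1 cells. The log2 fold change was 0.038 with a standard error of 0.077 and a 95% interval of -0.13 to 0.21. With the GC correction it was -0.013. The RfA1 libraries lay on both sides of the GFP libraries, with replicate 2 as the lowest of all 6. VCL had 1431 to 1658 counts per library, and its standard error was the smallest of the members.

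TAGLN (Gene ID 6876), an actin-binding protein of smooth muscle also called SM22-alpha, had 46, 51 and 50 counts in GFP cells and 39, 53 and 30 in RfA1 cells. RfA1 replicate 2, at 5.05 CPM, was above the GFP libraries, at 4.14 to 4.50 CPM, and RfA1 replicates 1 and 3, at 3.55 and 2.86 CPM, were below them. TAGLN had a log2 fold change of -0.19 with a standard error of 0.21, and without RfA1 replicate 2 it was -0.44, still not past the threshold. The summed level of 4 smooth muscle markers (MYH11, DES, LMOD1 and SYNPO2), none of which was at 0 in all libraries, was 10.8 to 13.4 CPM in GFP cells and 8.0 to 10.8 CPM in RfA1 cells. Most of it came from LMOD1, at 9.18 to 11.6 against 6.67 to 8.65 CPM (edgeR adjusted p = 0.323), an order that 8.01% of all genes had. DES overlapped, at 1.15 to 2.21 against 1.14 to 1.91 CPM. The part of smooth muscle markers in the values of TAGLN was not tested.

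**Figure D2:**
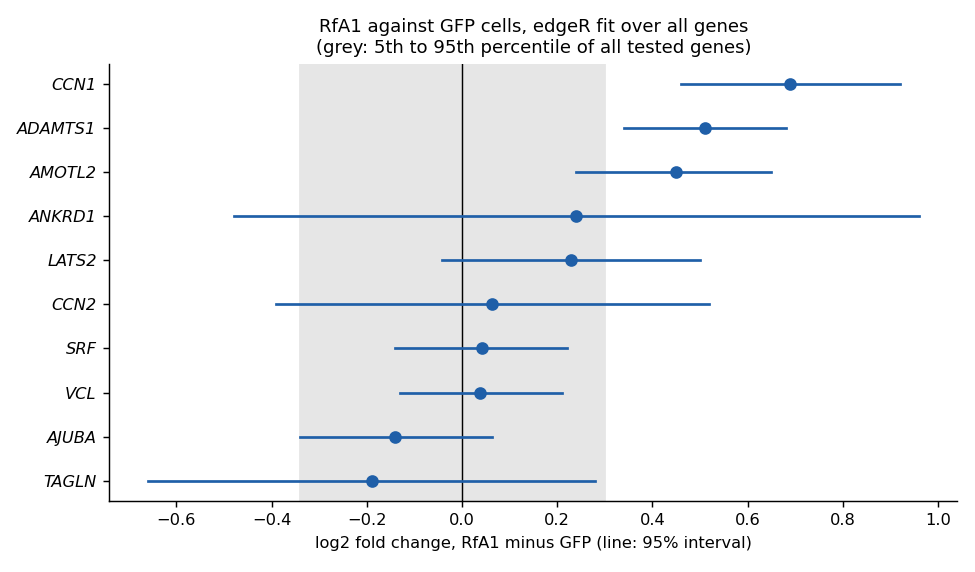
Log2 fold change of RfA1 over GFP cells (horizontal axis) of the 10 target genes with its 95% interval (line), from the edgeR fit over all genes, beside the range from the 5th to the 95th percentile of all tested genes (grey, -0.34 to 0.30). The points of CCN1, ADAMTS1 and AMOTL2 lie above the grey range, and the intervals of the other 7 genes include 0.

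Levels of different genes were compared in TPM, which the authors scaled by transcript length. In GFP cells the mean levels ran from SRF at 44.7 TPM and VCL at 34.5 TPM through ADAMTS1 at 25.7, CCN1 at 18.2, AMOTL2 at 13.9, AJUBA at 10.4 and LATS2 at 3.42 TPM down to CCN2 at 1.67, ANKRD1 at 1.55 and TAGLN at 1.52 TPM. Neighbours from SRF to CCN2 in this order did not overlap in any library, while CCN2, ANKRD1 and TAGLN could not be ordered, since ANKRD1 alone spanned 0.77 to 2.06 TPM. Among all genes of the table, SRF was at percentile 82.4 of the mean level in GFP cells, CCN1 at 65.9 and TAGLN at 29.2. The CCN1 transcript was thus far more abundant in these cells than those of CCN2 and ANKRD1. The order was the same in FPKM for all 10 genes.

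In RfA1 cells ADAMTS1 (36.0 to 39.8 TPM) overlapped with VCL (32.9 to 40.2 TPM), which in GFP cells was above it in every library. CCN1, at 29.5 to 32.2 TPM, was still below both, and SRF, at 48.0 to 50.2 TPM, was still the highest. The TPM ratio of CCN1 to SRF was 0.376, 0.40 and 0.449 in GFP cells and 0.625, 0.663 and 0.587 in RfA1 cells. Ratios of CCN1 to VCL ran from 0.477 to 0.585 and from 0.746 to 0.979, so CCN1 was higher relative to both genes in every RfA1 library. Since CCN1 was selected for its rise, these ratios repeat that rise.

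The order between the groups differed in part between the scales. In TPM, a comparison chosen after the data were seen, 6 members had every RfA1 library above every GFP library, an order that 9.29% of all genes had, and 0 members had every RfA1 library below, beside 6.15% of all genes. SRF was at 46.4, 44.1 and 43.7 TPM in GFP cells and at 48.0, 48.6 and 50.2 TPM in RfA1 cells, LATS2 at 3.21 to 3.66 against 3.88 to 4.92 TPM, and CCN2 at 1.63 to 1.69 against 1.73 to 1.96 TPM. The log2 fold changes in log2(TPM + 1) were 0.13 for SRF, 0.24 for LATS2 and 0.076 for CCN2, where the median of all genes was 0.045, and none of the 3 passed limma's test. The transcript of SRF, at 60.9% GC, was the most GC-rich of the members, and with the GC correction its log2 fold change was 0.19, also not past the threshold.

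**Figure D3:**
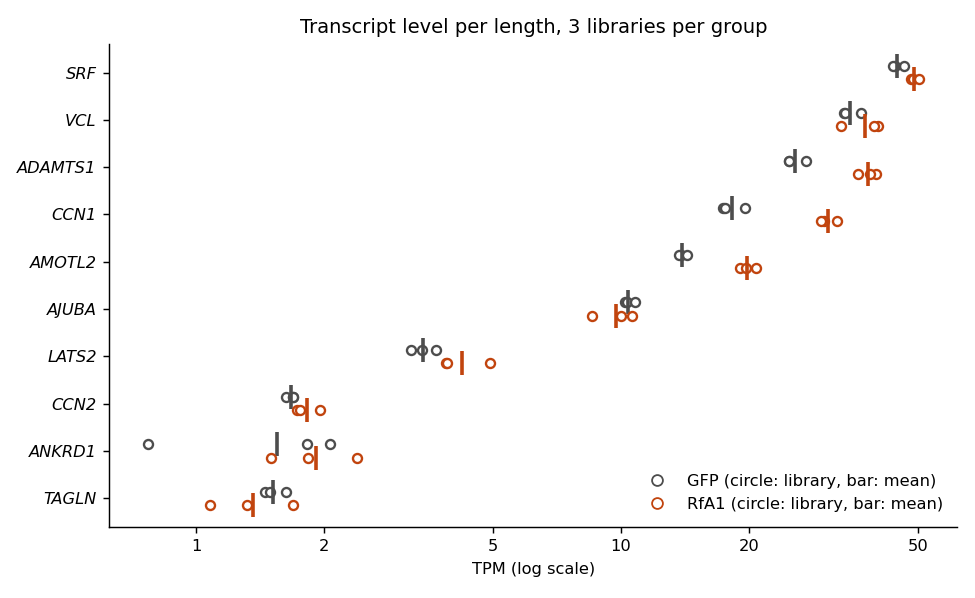
Deposited TPM (horizontal axis, log scale) of the 10 target genes, ordered by their mean in GFP cells, with circles for the 3 libraries of each group and bars for their means. CCN1 moves from a mean of 18.2 to 30.6 TPM and ADAMTS1 from 25.7 to 38.2 TPM, where it overlaps with VCL, while CCN2, ANKRD1 and TAGLN stay near 1.36 to 1.91 TPM.

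The genes whose pattern was most like that of CCN1 over the 6 libraries were AMOTL2 (Pearson's r 0.989 in log2 CPM), GRB2 (0.988), CDK5R1 (0.988), PVR (0.987) and DNAJB1 (0.986), out of 12292 genes with a mean of at least 1 log2 CPM. GRB2 is an adaptor of receptor tyrosine kinases, CDK5R1 an activator of the kinase CDK5, PVR a cell adhesion receptor and DNAJB1 a heat shock cochaperone. CDK5R1 was at 20.2 to 21.0 CPM in GFP cells and 27.0 to 30.6 CPM in RfA1 cells. The log2 fold change was 0.27 in PVR, 0.19 in DNAJB1 and 0.12 in GRB2, and none of the 5 genes passed the adjusted threshold. CCN1 was selected for its difference between the groups, so a gene with a steady rise in RfA1 cells, even a small one, has a high r. These r are therefore a description over 6 libraries in 2 groups, also for AMOTL2, and the points share libraries and depth. In log2(TPM + 1), 2 of the 5 stayed among the first 5, AMOTL2 and CDK5R1.

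Among the other members, ADAMTS1 was at rank 11 of the same 12292 genes with r 0.976, and LATS2 followed at 0.606, CCN2 at 0.492, SRF at 0.473 and VCL at 0.106. CCN1 and ADAMTS1 were both selected for differing between these groups, so a high r between them follows from that choice. TAGLN was at -0.184. AJUBA, at -0.857, was at rank 12040 and so near the opposite end. ANKRD1 was below the level required.

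The pathway around the members was read from lists of genes written by hand from general knowledge. In each of the 6 lists 0 genes passed edgeR's test, and 0 passed in DESeq2 and in limma-trend on TPM. Over all genes 0.0769%, 0.254% and 0.0308% passed in these fits. At such shares, 0 calls in lists of 5 to 26 tested genes say little about the pathway. Of 13 tested further targets of YAP and TEAD, 1 was higher and 0 lower at an unadjusted p under 0.05 (13.9% of all genes in either direction), 8 had a log2 fold change above 0, and the median was 0.045. F3, the tissue factor that starts coagulation, had the largest log2 fold change of the list. It was at 2.88, 3.71 and 3.44 CPM in GFP cells and at 6.28, 6.67 and 6.57 CPM in RfA1 cells. Every RfA1 library was above every GFP library, an order that 9.86% of all genes had. The log2 fold change was 0.96 with a standard error of 0.17 and an adjusted p of 0.0915 by edgeR, and over 15 alternatives the adjusted p ran from 0.00304 to 0.44, with 5 of the 15 under the threshold, among them the GC correction and the fit without RfA1 replicate 2. Those fits called 1.48% and 20.1% of all genes.

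The other targets on that list stayed closer to 0. PTPN14, a phosphatase that binds YAP, had a log2 fold change of 0.23 (edgeR adjusted p = 0.39). It passed without RfA1 replicate 2 (0.33, edgeR adjusted p = 0.0236), as did 20.1% of all genes. FOXF2, a forkhead factor at a mean of 41.8 TPM in GFP cells, had a log2 fold change of -0.13 (edgeR adjusted p = 0.511). GADD45A, a stress-response gene and the most abundant target of the list at 54.4 TPM, had one of 0.093. AXL, IGFBP3, NT5E and RBMS3 were below the filter, with at most 15 counts in any library.

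In the list of 26 genes of the Hippo pathway and the TEAD factors, all were tested, 2 were higher and 1 lower at an unadjusted p under 0.05 (13.9% of all genes in either direction), 16 were above 0, and the median log2 fold change was 0.027. MOB1A and MOB1B, the adaptors that activate the LATS kinases, were at 61.5 to 66.8 CPM and 14.3 to 14.8 CPM in GFP cells and at 67.8 to 81.2 CPM and 16.9 to 22.1 CPM in RfA1 cells. Both had all RfA1 libraries above all GFP libraries, an order that 3 of the 26 genes had, beside 9.86% of all genes. Their log2 fold changes were 0.27 and 0.36, with an edgeR adjusted p of 0.278 for each. TAOK2, a kinase upstream of the Hippo kinases, had a log2 fold change of -0.26 (edgeR adjusted p = 0.318) and was the most abundant gene of the list at 78.1 TPM in GFP cells, followed by TEAD4 at 56.2 TPM with a log2 fold change of -0.13. Without RfA1 replicate 2, TAOK2, MOB1A and MOB1B passed, 3 of the 26 genes, beside 20.1% of all genes in that fit.

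The cofactors themselves did not pass, though YAP1 did in 1 of 15 alternatives. YAP1 had 418 to 482 counts in GFP cells and 318 to 407 in RfA1 cells, with a log2 fold change of -0.21 and a standard error of 0.11 (edgeR adjusted p = 0.404). It passed with the GC correction and the replicate number as a block together (-0.28, edgeR adjusted p = 0.0297), as did 3.61% of all genes. WWTR1, which encodes TAZ, had one of 0.011 (edgeR adjusted p = 0.963). TEAD1, TEAD2 and TEAD3 lay between -0.044 and 0.044. LATS1, the other LATS kinase, was at 0.014, and AMOT and AMOTL1, the relatives of AMOTL2, were at 0.038 and 0.036, with standard errors of 0.095 and 0.077. Among the 3 angiomotins, AMOTL2 was the one whose libraries did not overlap in CPM.

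Among 5 tested cofactors of SRF, 0 passed an unadjusted p under 0.05 (13.9% of all genes in either direction), and the median log2 fold change was 0.044. ELK4 and ELK3 had log2 fold changes of 0.17 each, MRTFA of 0.044 and ELK1 of 0.021. MRTFA was at a mean of 21.8 TPM and ELK1 at 38.8 TPM in GFP cells, so cofactors of both kinds were expressed.

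Of 19 tested cytoskeletal targets of MRTF and SRF, 6 had a log2 fold change above 0, and the median was -0.082, which became 0.036 with the GC correction. Beside 0 called, 1 was higher and 0 lower at an unadjusted p under 0.05 (13.9% of all genes in either direction), and 4 of 19 had every RfA1 library above every GFP library (9.86% of all genes). TPM4, a tropomyosin, was at 174 to 180 CPM in GFP cells and 205 to 206 CPM in RfA1 cells, with a log2 fold change of 0.21 (edgeR adjusted p = 0.278), and it passed without RfA1 replicate 2 (0.21, edgeR adjusted p = 0.0346). CNN1, the smooth muscle calponin, was at 0.36 to 1.06 CPM against 1.24 to 1.33 CPM, with a log2 fold change of 0.73 and a standard error of 0.37 (edgeR adjusted p = 0.399). The cytoplasmic actins ACTG1 and ACTB, the most abundant genes of the list at 1710 and 1350 TPM, had log2 fold changes of -0.03 and -0.10, and PDLIM7, a PDZ and LIM domain protein of actin fibres, had one of -0.19. Without RfA1 replicate 2, PDLIM7 passed (-0.29, edgeR adjusted p = 0.0249), as did MYH9 and TPM2, which were lower (-0.26 and -0.37). In that fit 4 genes of the list passed, TPM4 among them, beside 20.1% of all genes. ACTG2 and MYL9 were below the filter, with at most 2 counts in any library.

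Of 9 tested immediate early targets of SRF and the ternary complex factors, 1 was higher and 1 lower at an unadjusted p under 0.05, beside 13.9% of all genes in either direction. The median log2 fold change was 0.046 with 6 of 9 above 0, and with the GC correction it was 0.18 with 8 of 9 above 0. FOS, a subunit of AP-1, was at 6.03, 5.21 and 6.09 CPM in GFP cells and at 9.74, 11.7 and 8.58 CPM in RfA1 cells, all above, an order that 9.86% of all genes had. Its log2 fold change of 0.79 with a standard error of 0.16 had an edgeR adjusted p of 0.156, and the adjusted p ran from 0.000778 to 0.662 over 15 alternatives, with 4 under the threshold, among them the GC correction and the fit without RfA1 replicate 2. EGR1, a zinc finger factor, went the other way, from 37.2, 31.9 and 27.6 CPM to 19, 22 and 27.2 CPM, all below, an order that 8.01% of all genes had. EGR1 had a log2 fold change of -0.50 (edgeR adjusted p = 0.242), and it passed without RfA1 replicate 2 (-0.48, edgeR adjusted p = 0.0203). MCL1, a survival factor of the BCL2 family, had a log2 fold change of 0.14, and IER2 and JUNB, the most abundant genes of the list at 54.4 and 49.1 TPM, had ones of -0.11 and 0.027. IER2 passed without RfA1 replicate 2 (-0.34, edgeR adjusted p = 0.0118). In that fit 3 genes of the list passed (FOS, EGR1 and IER2), beside 20.1% of all genes.

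Paralogs of the members gave a further comparison. Of 23 tested, 0 were higher and 3 lower at an unadjusted p under 0.05, beside 949 higher and 863 lower of all 13002 genes (13.9%), and the median log2 fold change was 0.014. A log2 fold change above 0 was found in 13 of the 23. In 1 paralog every RfA1 library was above every GFP library and in 3 below, beside 9.86% and 8.01% of all genes. MEF2B, a relative of SRF among the MADS-box factors, was at 5.85, 7.32 and 6.62 CPM in GFP cells and 3.28, 4.86 and 3.05 CPM in RfA1 cells, with a log2 fold change of -0.82 (edgeR adjusted p = 0.184). ADAMTS13, the protease that cleaves von Willebrand factor, had a log2 fold change of -0.33 (edgeR adjusted p = 0.287), and ADAMTS19 of -0.43 (edgeR adjusted p = 0.32). Other relatives of ADAMTS1 had its sign, among them ADAMTS9 at 0.28 (edgeR adjusted p = 0.424), the paralog with every RfA1 library above. Without RfA1 replicate 2, MEF2B (-1.06, edgeR adjusted p = 0.00313) and ADAMTS13 (-0.41, edgeR adjusted p = 0.0171) passed, as did MEF2A (0.24), another MADS-box factor. That fit called 3 of the 23 paralogs, beside 20.1% of all genes. TAGLN2, the transgelin of non-muscle cells, was at 838 TPM against 1.52 TPM for TAGLN in GFP cells and had a log2 fold change of 0.0096.

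**Figure D4:**
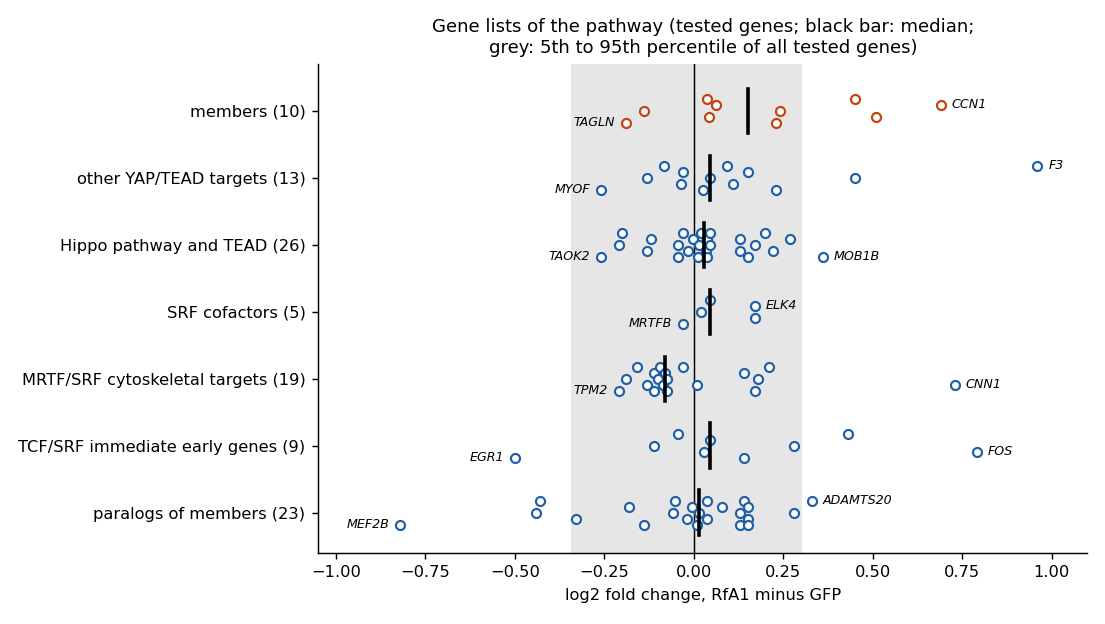
Log2 fold change of RfA1 over GFP cells (horizontal axis) of every tested gene of the members and of the 6 lists (rows, number tested in brackets), with the median of each as a black bar, the lowest and highest gene named, and the 5th to 95th percentile of all tested genes in grey. Medians of the lists lie between -0.082 and 0.046, and F3 and FOS lie near CCN1 and beyond the grey range.

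Markers of other cell types were read as summed levels. Of 9 fibroblast markers in the table, 2 passed the filter, and the sum over the 9 was 39.7 to 46.4 CPM in GFP cells and 37.2 to 46.1 CPM in RfA1 cells. Most of it came from COL1A1, a fibrillar collagen chain, at means of 38.4 and 35.4 CPM. Summed endothelial markers (4 genes) were at 0.441 to 0.971 and 0.273 to 0.572 CPM, and leukocyte markers (3 genes in the table) at 1.71 to 2.21 and 1.43 to 2.57 CPM. None of these markers was at 0 in all libraries. The part of other cell types in the values of the members was not tested.

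**Figure D5:**
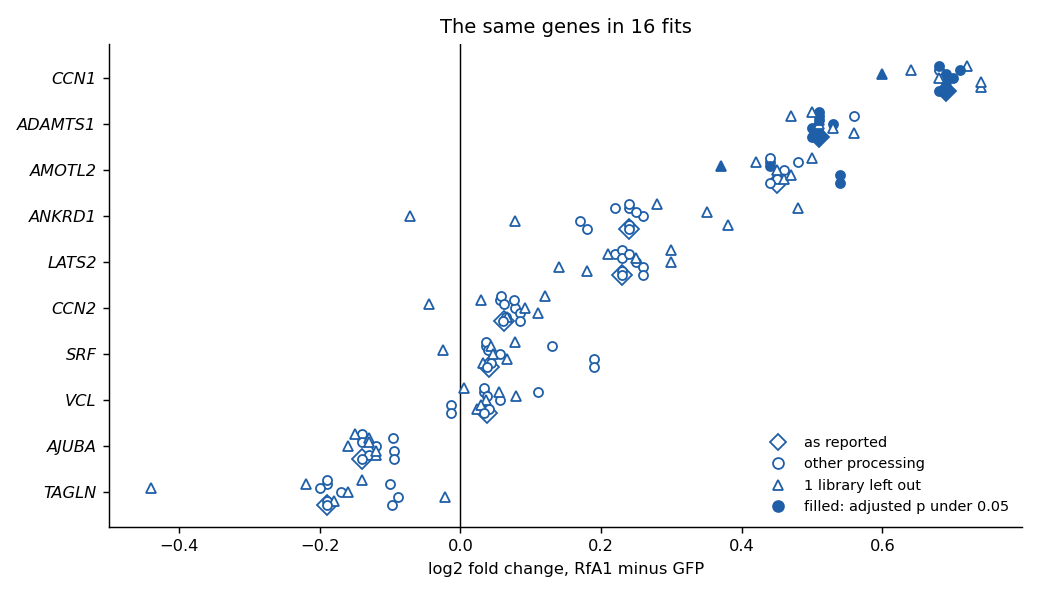
Log2 fold change of RfA1 over GFP cells (horizontal axis) of the 10 target genes as reported (diamond), under other processing (circles) and with 1 library left out (triangles), filled where the adjusted p was under 0.05. CCN1, ADAMTS1 and AMOTL2 stay at 0.37 or above in all 16 fits, AJUBA and TAGLN stay below 0, and CCN2, ANKRD1, SRF and VCL cross 0 in at least 1 fit.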

How the data were processed

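RNA-seq of 6 HEK-293T samples, 3 per group, was read from 1 deposited table. The submitters' processing notes name HISAT and GRCh38.p13, and the counting tool is not given in the sources used here. Per the file headers, the authors gave estimated counts without normalization (7.39% to 8.02% not whole, rounded here), TPM and FPKM per library. The authors' averages over replicates were not used.

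Genes were filtered by filterByExpr (minimum count 10, minimum total 15), normalized by TMM and tested in edgeR 4.0.16 (R 4.3.3) by the two-sided quasi-likelihood method with robust fitting, with Benjamini-Hochberg adjustment over 13002 genes. The common biological coefficient of variation was 8.83%. The script was tested on simulated data. Alternatives were DESeq2 1.42.0, limma 3.58.1 on log2(TPM + 1), other scalings and filters, a replicate block, a GC offset (spline with 5 degrees of freedom, GC content for 98.3% of genes, from GENCODE transcripts) and each library left out. The comparison in TPM of which groups overlap was added after the data were seen. Depth was 10272306 to 11566284 counts, and intervals are at 95%.

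The members and lists were chosen with earlier results of these data known. Named were all members, from each list the genes past the threshold, the 3 with the smallest p and the 2 with the highest mean TPM in GFP cells, and the 5 genes most correlated with CCN1. The cofactors YAP1, WWTR1 and TEADs, the other angiomotins, LATS1, ADAMTS9, COL1A1, LMOD1, DES, the genes that passed only in an alternative and those below the filter are named after their values were seen. Promoters are from RefSeq. Figures were drawn with matplotlib 3.10.9.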

Additional observations from a re-analysis of the deposited data

How the results depend on the processing

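The log2 fold changes of the 10 target genes kept their sign and their side of the threshold in 128 comparisons with an alternative, lost the call in 13, gained it in 4 and changed sign in 5. With 1 library left out, CCN2 ran from -0.045 (without RfA1 replicate 2) to 0.12, SRF from -0.025 (without RfA1 replicate 2) to 0.078 and ANKRD1 from -0.072 (without GFP replicate 2) to 0.48. The sign also changed in VCL (-0.013) with the GC correction, alone or with the replicate block. The 10 genes called in the whole table became 6 with upper-quartile normalization (4 higher, 2 lower, against 8 and 2), 20 without a filter (12 and 8), 192 with the GC correction (140 and 52), 33 in DESeq2 (17 and 16) and 4 in limma on TPM (4 and 0). With 1 library left out they were 0 to 2636, the latter without RfA1 replicate 2 (1124 higher, 1512 lower), 0 without GFP replicate 2 or 3, 1 without GFP replicate 1, 2 without RfA1 replicate 1 and 4 without RfA1 replicate 3. Of the 2 called target genes, 0 were left with upper-quartile normalization, 1 in limma on TPM, and 0 to 3 with 1 library left out. Of 0 called genes in each list, further YAP/TEAD targets became 1 without a filter and 1 with the GC correction (F3 in both) and 0 to 2 with 1 library left out, Hippo genes 0 to 3, cytoskeletal targets 0 to 4, immediate early genes 1 with the GC correction (FOS) and 0 to 3, and paralogs 0 to 3, with the highest value in each without RfA1 replicate 2. SRF cofactors stayed at 0 in all fits. The cause of these shifts was not tested. Counts of 10 to 53 per library limit CCN2, ANKRD1 and TAGLN.

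The replicate numbers were not treated as a pairing, because the labels do not say that they mark shared cultures. The deviations of same-numbered libraries from their group means correlated at 0.166, 0.321 and -0.143. RfA1 replicates 1 and 2 correlated best with the GFP library of their own number. GFP replicate 1 correlated best with RfA1 replicate 3 (0.348) and GFP replicate 3 with RfA1 replicate 2 (0.14), so not every library was closest to its own number. With the replicate number as a block, 625 genes were called (309 higher, 316 lower, 4.81%), among them 3 target genes (CCN1, ADAMTS1 and AMOTL2, the last with 0.44) and F3, TAOK2, FOS and MEF2B, 1 gene each of the further YAP/TEAD targets, the Hippo genes, the immediate early genes and the paralogs. With the block and the GC correction together, 470 genes were called (305 higher, 165 lower), with 3 target genes and 1 gene in each of those lists (F3, YAP1, FOS and MEF2B) and 1 cytoskeletal target (TPM4).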
